A study of Mus musculus with 24 samples.

Results

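The comparison of the lingual with the buccal part of the cap stage tooth germ after 2 days of culture in vitro comprised 6 of the study's 24 RNA-seq libraries, 3 from the cultured lingual part (Cap-L+2D) and 3 from the cultured buccal part (Cap-B+2D). They were found by their sample titles, and all 21195 of the 56748 genes in the count table that passed a filter on low counts were tested. First molar tooth germs came from mandibles of ICR embryos at E13, the cap stage, and were split with a fine needle into a lingual part, which faces the tongue, and a buccal part, which faces the cheek. Each part was cultured alone, its mesenchyme was then freed from the epithelium with dispase II, and total RNA was extracted. The labels describe all libraries as mesenchymal cells. Both groups carried no named mutation, shared the stage, the split and the 2 days of culture, and differed by side. The uncultured parts (Cap-L and Cap-B, 3 libraries each) had the split and the isolation of the mesenchyme but no culture, and the remaining 12 libraries were undivided mesenchyme or divided parts of the bell stage (E15). The methods describe sequencing in triplicate of embryos from several pregnant mice, name fewer biological replicates than libraries, and do not say whether the 3 libraries of a group came from separate litters, so p-values here measure the spread between these libraries, which may be technical.

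A tooth forms from oral epithelium and the neural crest mesenchyme under it, which exchange signals of the Wnt, BMP, FGF, Hedgehog and ectodysplasin families. In the mesenchyme these signals act through transcription factors such as Msx1, Pax9, Osr2 and Runx2, and the condensed mesenchyme gives rise to the dental papilla and the dental follicle. Epithelium, skeletal muscle of the jaw, vessels, nerve and bone lie close by, so a dissected part can carry RNA of all of them. Expression was therefore described by 27 gene lists, 11 of which hold markers of cells other than dental mesenchyme. In RNA from whole tissue, fewer cells of a type and less RNA per cell cannot be told apart.

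Each library held between 26307346 and 39266497 counted read pairs. Values of the cultured parts are counts per 1000000 reads after TMM scaling of the 6 libraries (CPM). The floor of 3 counts lay between 0.0764 and 0.114 CPM. Values of the uncultured parts were scaled over 12 libraries, the cultured and uncultured parts together. On that scale cultured values were slightly higher, as for Krt5 in Cap-L+2D, with a mean of 157 against 150 CPM. Levels before and after culture are therefore compared only roughly. Gene positions are of the build GRCm39. Log2 fold changes are Cap-B+2D over Cap-L+2D, and negative values stand for higher lingual expression. A gene was called when edgeR's quasi-likelihood test gave an adjusted p under 0.05 and the absolute log2 fold change was over 0.5. For a single gene, the smallest p of a two-sided exact permutation test with these group sizes is 0.1. Libraries of 1 group correlated with each other at r = 0.9945 to 0.9959 across genes, and libraries of different groups at 0.9574 to 0.959.

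After culture, 2657 genes (12.5% of those tested) had higher expression in Cap-L+2D and 2658 (12.5%) in Cap-B+2D. These shares are the background for each count of called list members below. The median log2 fold change of all genes tested was 0.001. In 12570 genes (59.3%) all libraries of one group lay above all of the other, so absence of overlap by itself was the usual state of a gene here. Log2 fold changes of 2 or more were reached by 391 of the lingual and 538 of the buccal calls. Among the large differences were those of keratins of the oral epithelium on the lingual side and of a set of skeletal muscle genes on the buccal side.

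Epithelial genes were far higher in the cultured lingual part, although the mesenchyme had been separated from the epithelium. Of 24 epithelial markers tested, 22 were higher in Cap-L+2D and 1 in Cap-B+2D, with a median log2 fold change of -3.53. The markers together made up 0.082% of the normalized counts in Cap-L+2D and 0.0118% in Cap-B+2D, and their sum ran from 792 to 843.8 CPM against 117.7 to 119.6 CPM. Before culture the same sum was 805.3 to 872.1 CPM in Cap-L and 568.8 to 588.7 CPM in Cap-B, so the lingual sum was near its uncultured range and the buccal sum was well under it.

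Krt5 (ENSMUSG00000061527, chromosome 15, 101615505 to 101621333), a keratin of basal epithelial cells, was at 147, 142 and 160 CPM in Cap-L+2D and 7.28, 8.08 and 8.09 CPM in Cap-B+2D (log2 fold change -4.26, SE 0.06, adjusted p = 3.73e-26). Krt13 (ENSMUSG00000044041, chromosome 11, 100008153 to 100012392), a keratin of the non-cornified oral mucosa, was at 106, 103 and 107 CPM in Cap-L+2D and 0.0515, 0 and 0 CPM in Cap-B+2D. Only 2 reads of Krt13 were counted over the 3 buccal libraries, which put the ratio of lingual to buccal expression at 5437 with a 95% counting interval of 1505 to 44899. Its partner keratin Krt4 was at 56.2, 52.8 and 56.7 CPM in Cap-L+2D and 0.0257, 0.0327 and 0.0297 CPM in Cap-B+2D, with 3 reads over the buccal libraries and a ratio of 1901 (95% counting interval 650 to 9222). Both keratins were low before culture, at 0.534 ± 0.205 CPM in Cap-L and 0.532 ± 0.115 CPM in Cap-B (SD, n = 3) for Krt13 and 0.247 ± 0.0494 CPM in Cap-L and 0.516 ± 0.15 CPM in Cap-B (SD, n = 3) for Krt4. Lingual expression after culture stood far above that of all uncultured parts. The hyperplastic keratin Krt6a (37.1, 32.8 and 38.1 CPM in Cap-L+2D and 0.36, 0.425 and 0.386 CPM in Cap-B+2D) and the desmosomal cadherin Dsg3 (12.5, 13.9 and 11.2 CPM in Cap-L+2D and 0.0515, 0.0982 and 0.149 CPM in Cap-B+2D) had the same order of groups. Shh, the Hedgehog ligand that dental epithelium secretes from the enamel knot, was at 1.66, 1.03 and 1.3 CPM in Cap-L+2D and 0, 0 and 0 CPM in Cap-B+2D. No read was counted in any buccal library and mean expression was at least 15.1-fold higher in the lingual part against a floor of 3 counts per library. Krt13, Krt4, Dsg3 and Shh had at most 2, 1, 5 and 0 counts in a buccal library and could pass the filter only through their lingual counts. The filter thus favoured a lingual direction for them, and their place among the 22 lingual calls is no separate result. Sox2, a transcription factor of the dental lamina, was no member of the list and was at 2.79, 2.52 and 2.99 CPM in Cap-L+2D and 0.309, 0.131 and 0.238 CPM in Cap-B+2D (log2 fold change -3.56, SE 0.24, adjusted p = 2.55e-12).

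**Figure D1:**
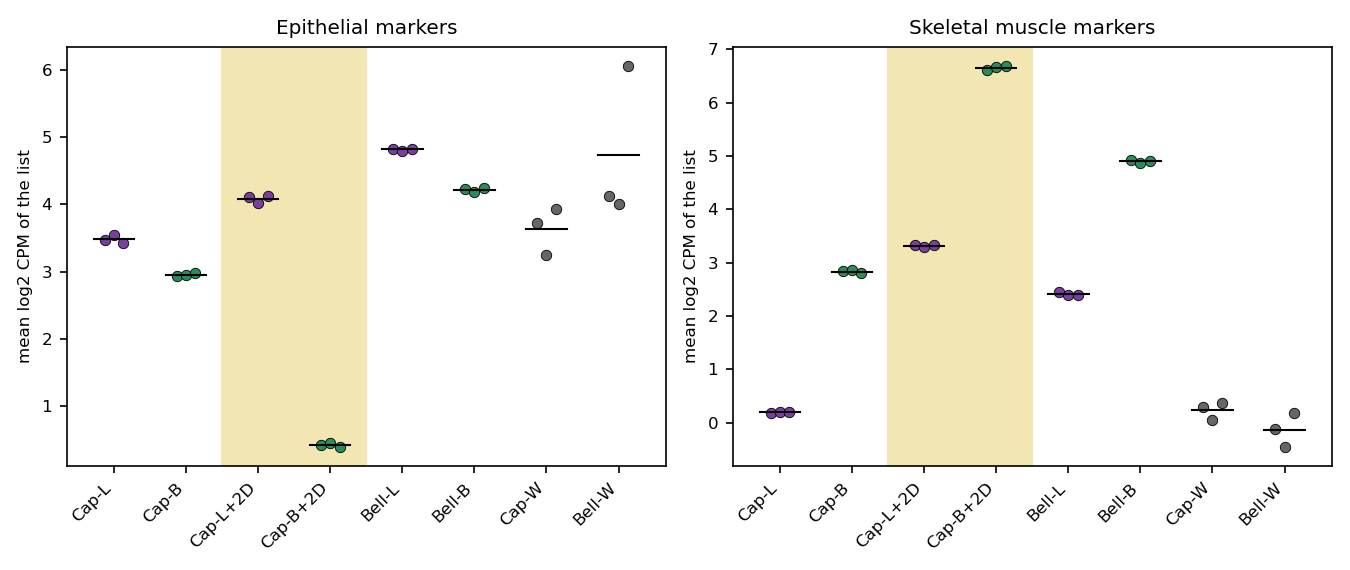
Mean log2 CPM of the epithelial markers (left) and the skeletal muscle markers (right) in each of the 24 libraries, by group, with a line at the group mean. In the shaded groups the epithelial mean lay at 4.02 to 4.12 in Cap-L+2D and 0.402 to 0.46 in Cap-B+2D, while the muscle mean lay at 3.29 to 3.33 and 6.61 to 6.69, and 1 Bell-W library stood apart at an epithelial mean of 6.05.

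Skeletal muscle genes differed the other way. All 24 muscle markers tested were higher in the buccal part, with a median log2 fold change of 3.62 and quartiles of 3.40 and 3.76. Their sum was 618.9 to 647.8 CPM in Cap-L+2D and 6066 to 6419 CPM in Cap-B+2D, or 0.0634% and 0.623% of the normalized counts. Before culture it was 181.7 to 198.7 CPM in Cap-L and 472.1 to 482.7 CPM in Cap-B, so the cultured libraries of both sides lay above their uncultured counterparts.

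The muscle genes ran from satellite cell and progenitor markers to contractile proteins. Pax7 (ENSMUSG00000028736, chromosome 4, 139464373 to 139560839), the transcription factor of muscle progenitors, was at 2.17, 2.12 and 2.27 CPM in Cap-L+2D and 32.7, 33.2 and 33.6 CPM in Cap-B+2D (log2 fold change 3.92, SE 0.079, adjusted p = 3.73e-23). Myf5, which commits cells to the muscle lineage, was at 1.39, 1.16 and 1.2 CPM in Cap-L+2D and 17.8, 18.5 and 18.7 CPM in Cap-B+2D (log2 fold change 3.88, SE 0.1, adjusted p = 9.7e-21). Myf6, a later regulator of the same family, stayed close to the floor in the lingual part, at 0.0387, 0 and 0.026 CPM in Cap-L+2D and 0.463, 0.36 and 0.357 CPM in Cap-B+2D. With at most 1 count in a lingual library, Myf6 could pass the filter only through its buccal counts. The filter thus favoured a buccal direction, and its place among the 24 muscle markers is no separate result. Among the contractile genes, Actc1 (ENSMUSG00000068614, chromosome 2, 113877763 to 113884029), the cardiac actin that embryonic skeletal muscle also uses, was at 120, 115 and 120 CPM in Cap-L+2D and 1446, 1501 and 1524 CPM in Cap-B+2D (log2 fold change 3.65, SE 0.04, adjusted p = 1.4e-27). The embryonic myosin heavy chain Myh3 was at 81.2, 77.1 and 83.2 CPM in Cap-L+2D and 1074, 1085 and 1143 CPM in Cap-B+2D (log2 fold change 3.77, SE 0.043, adjusted p = 1.41e-27). The calcium release channel Ryr1 was at 15.8, 14 and 15.3 CPM in Cap-L+2D and 206, 212 and 224 CPM in Cap-B+2D (log2 fold change 3.83, SE 0.052, adjusted p = 1.61e-26). Progenitor and contractile genes differed by nearly the same factor, and the 3 libraries of each group lay close together. The member with the smallest difference was Mef2c, chosen after its values were seen, a transcription factor that vessels and neural crest also express (log2 fold change 0.76, adjusted p = 6.5e-15). In the whole table, 79 of the buccal calls had a log2 fold change between the quartiles of the muscle list, and 120 had one at or above its median.

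The promoters of 3 muscle genes that moved together are shown to give the sequence upstream of their start sites. Each is the 250 bases before the RefSeq transcription start (assembly GRCm38.p6, which is not the build of the counts), 5′ to 3′ on the gene's strand, with capitals for the E-box CANNTG, the motif that myogenic regulators of the Myod1 family bind, and for the TATA box letters TATAAA, both searched on both strands.
Myog (chr1:134289754-134290003 + strand): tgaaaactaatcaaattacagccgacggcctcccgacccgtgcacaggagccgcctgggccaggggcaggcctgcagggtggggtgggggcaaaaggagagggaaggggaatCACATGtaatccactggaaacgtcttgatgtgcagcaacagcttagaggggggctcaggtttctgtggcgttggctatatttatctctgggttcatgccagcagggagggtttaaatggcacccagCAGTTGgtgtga
Actc1 (chr2:114052876-114053125 - strand): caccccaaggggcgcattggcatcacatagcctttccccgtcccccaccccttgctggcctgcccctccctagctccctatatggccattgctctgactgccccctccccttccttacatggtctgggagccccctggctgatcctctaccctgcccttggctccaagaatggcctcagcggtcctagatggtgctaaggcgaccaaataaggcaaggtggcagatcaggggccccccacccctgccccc
Myh3 (chr11:67078050-67078299 + strand): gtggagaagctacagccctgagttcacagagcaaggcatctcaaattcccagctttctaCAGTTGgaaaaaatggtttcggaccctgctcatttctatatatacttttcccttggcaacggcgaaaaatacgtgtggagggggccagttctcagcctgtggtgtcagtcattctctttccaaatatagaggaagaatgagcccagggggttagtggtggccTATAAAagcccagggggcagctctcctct
The window of Myog held 2 E-boxes, that of Myh3 held 1 together with 1 TATA box, and that of Actc1 held neither set of letters. An E-box is present in 66.2% of all 32851 RefSeq windows of this length and TATAAA in 12.4%, so these matches are descriptions of the windows and not of bound sites. After culture, Myog had a log2 fold change of 3.63.

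Vessel and macrophage genes were higher in the lingual part. Of 15 endothelial markers, 13 were called lingual and 0 buccal (median log2 fold change -1.23), where edgeR's unadjusted p was under 0.05 for 0 of them in the buccal direction. Cdh5, the cadherin of vessel junctions, was at 142, 143 and 142 CPM in Cap-L+2D and 50.7, 53.7 and 52.7 CPM in Cap-B+2D (log2 fold change -1.44, SE 0.04, adjusted p = 2.43e-20). The tight junction gene Cldn5 was at 25.7, 24.7 and 24.9 CPM in Cap-L+2D and 7.87, 6.84 and 8.74 CPM in Cap-B+2D (log2 fold change -1.68, SE 0.073, adjusted p = 3.26e-16). Before culture the endothelial sums were 698.5 to 718.3 CPM in Cap-L and 630.1 to 634.2 CPM in Cap-B, against 542.3 to 546.4 and 241.7 to 251.8 CPM after it. Among 15 macrophage markers, 9 were called lingual, and Lyz2, which encodes lysozyme, was at 321, 314 and 312 CPM in Cap-L+2D and 163, 161 and 158 CPM in Cap-B+2D (log2 fold change -0.97, SE 0.036, adjusted p = 1.01e-17). The uncultured means of Lyz2 were 4.96 ± 0.118 CPM in Cap-L and 4.12 ± 0.407 CPM in Cap-B (SD, n = 3), more than an order of magnitude lower on both sides.

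Markers of blood, nerve and connective tissue did not share 1 direction. Globins were low after culture, with Hba-a1 at 14.2, 11.9 and 13.1 CPM in Cap-L+2D and 15.2, 13.6 and 15.9 CPM in Cap-B+2D against 1165 ± 148 CPM in Cap-L and 1282 ± 23.4 CPM in Cap-B (SD, n = 3) before it. The embryonic globin Hbb-y was higher in the buccal part (log2 fold change 1.04, SE 0.12, adjusted p = 3.33e-08) and the adult globin Hbb-bs in the lingual part (log2 fold change -0.86, SE 0.1, adjusted p = 1.21e-07), and the globin copies share sequence, so reads that map to several of them were not counted. In the glial list, 4 genes were called lingual and 3 buccal, and Sox10, which defines the lineage, was filtered out for low counts and had means under 0.25 CPM in both groups. Gfra3, a receptor for the neurotrophic factor artemin, was at 20.7, 19.2 and 18.9 CPM in Cap-L+2D and 0.823, 1.51 and 0.951 CPM in Cap-B+2D. Erbb3, the neuregulin receptor, was at 11, 11.4 and 11.4 CPM in Cap-L+2D and 83.9, 86.5 and 87.7 CPM in Cap-B+2D. Of 9 neuronal markers, 7 were called buccal, against 12.5% of all genes. Gap43, a protein of growing axons, was at 19.7, 20.2 and 22 CPM in Cap-L+2D and 84, 86.2 and 88.2 CPM in Cap-B+2D (log2 fold change 2.05, SE 0.049, adjusted p = 1.31e-21). Isl1, a transcription factor of neurons that progenitors of jaw muscle also express, was at 2.24, 2.62 and 2.37 CPM in Cap-L+2D and 35.2, 32.2 and 35.4 CPM in Cap-B+2D (log2 fold change 3.83, SE 0.083, adjusted p = 1.58e-22). The axonal and progenitor genes thus had values several times higher in every buccal library. In mural cell genes, Acta2 was higher in the buccal part (392, 388 and 410 CPM in Cap-L+2D and 995, 988 and 1081 CPM in Cap-B+2D) and the pericyte gene Rgs5 in the lingual part (22.9, 22.3 and 21.7 CPM in Cap-L+2D and 5.89, 5.2 and 4.58 CPM in Cap-B+2D).

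Bone genes were higher in the lingual part in 12 of 15 cases and in the buccal part in 0, with a median log2 fold change of -1.54 (edgeR's unadjusted p was under 0.05 for 0 in the buccal direction). Of all genes, 12.5% were called in each direction. Runx2 (ENSMUSG00000039153, chromosome 17, 44806874 to 45125684), the regulator of osteoblasts that dental mesenchyme also needs, was at 276, 277 and 268 CPM in Cap-L+2D and 116, 116 and 114 CPM in Cap-B+2D (log2 fold change -1.24, SE 0.037, adjusted p = 8.46e-20). Ibsp, bone sialoprotein of mineralizing matrix, was at 1112, 1131 and 1078 CPM in Cap-L+2D and 115, 111 and 110 CPM in Cap-B+2D (log2 fold change -3.30, SE 0.039, adjusted p = 2.08e-27). Expression of the osteocalcin gene Bglap was 33.2, 32.7 and 33.8 CPM in Cap-L+2D and 5.07, 5.89 and 4.64 CPM in Cap-B+2D. Col1a1 and Sparc, the most abundant members, were not called, with log2 fold changes of -0.17 and -0.086, so abundant matrix genes and mineralization genes of the same list differed in their side difference. Of 14 cartilage markers, 9 were called lingual, including Col11a2 (274, 252 and 295 CPM in Cap-L+2D and 49.6, 54.8 and 55.7 CPM in Cap-B+2D), a minor fibril collagen, and 1 buccal, the proteoglycan gene Acan (7.04, 7.6 and 8.54 CPM in Cap-L+2D and 30, 31.9 and 33.4 CPM in Cap-B+2D). Of 7 tendon genes, 4 were called lingual and 1 buccal, Scx, a transcription factor of tendon progenitors named after its values were seen (log2 fold change 0.80). The thrombospondin Thbs4 (78.7, 77.5 and 81.1 CPM in Cap-L+2D and 18, 17 and 17.1 CPM in Cap-B+2D) and the tenomodulin gene Tnmd (29.7, 28.8 and 24.6 CPM in Cap-L+2D and 12, 10.3 and 10.6 CPM in Cap-B+2D) were higher in the lingual part.

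Transcription factors of dental mesenchyme fell into groups with opposite side differences. Of 27 tested, 16 were called lingual and 4 buccal, against the 12.5% of all genes called in each direction. Hand2, a factor of the ventral first arch, was at 10.6, 11.7 and 9.87 CPM in Cap-L+2D and 0.798, 0.654 and 0.624 CPM in Cap-B+2D (log2 fold change -3.93, SE 0.14, adjusted p = 3.7e-18). Msx2, a target of BMP signals, was at 9.68, 9.92 and 9.79 CPM in Cap-L+2D and 1.52, 1.15 and 1.43 CPM in Cap-B+2D (log2 fold change -2.83, SE 0.12, adjusted p = 9.63e-17). The limb and jaw factor Prrx1 was at 1071, 1100 and 1041 CPM in Cap-L+2D and 660, 641 and 623 CPM in Cap-B+2D (log2 fold change -0.74, SE 0.036, adjusted p = 3.32e-15). The buccal group was led by the T-box genes. Tbx18 (ENSMUSG00000032419, chromosome 9, 87584853 to 87613313) was at 7.78, 8.99 and 7.53 CPM in Cap-L+2D and 129, 129 and 131 CPM in Cap-B+2D (log2 fold change 4.00, SE 0.056, adjusted p = 3.28e-26). Tbx15 was at 30.1, 30.5 and 28.5 CPM in Cap-L+2D and 213, 220 and 214 CPM in Cap-B+2D (log2 fold change 2.86, SE 0.043, adjusted p = 1.17e-25). Of the 4 factors named at the start, Msx1, Pax9 and Osr2 differed less, while Runx2 was called lingual (log2 fold change -1.24). Msx1 was at 256, 248 and 254 CPM in Cap-L+2D and 189, 195 and 204 CPM in Cap-B+2D (log2 fold change -0.36, SE 0.038, adjusted p = 7.29e-09). Pax9 was at 237, 236 and 240 CPM in Cap-L+2D and 312, 313 and 315 CPM in Cap-B+2D (log2 fold change 0.40, SE 0.035, adjusted p = 3.45e-10). Osr2 was at 262, 254 and 253 CPM in Cap-L+2D and 268, 274 and 288 CPM in Cap-B+2D (log2 fold change 0.11, SE 0.037, adjusted p = 0.0151). Msx1, Pax9 and Osr2 did not pass the limit on the fold. Their groups did not overlap, as was the case for 59.3% of all genes tested.

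**Figure D2:**
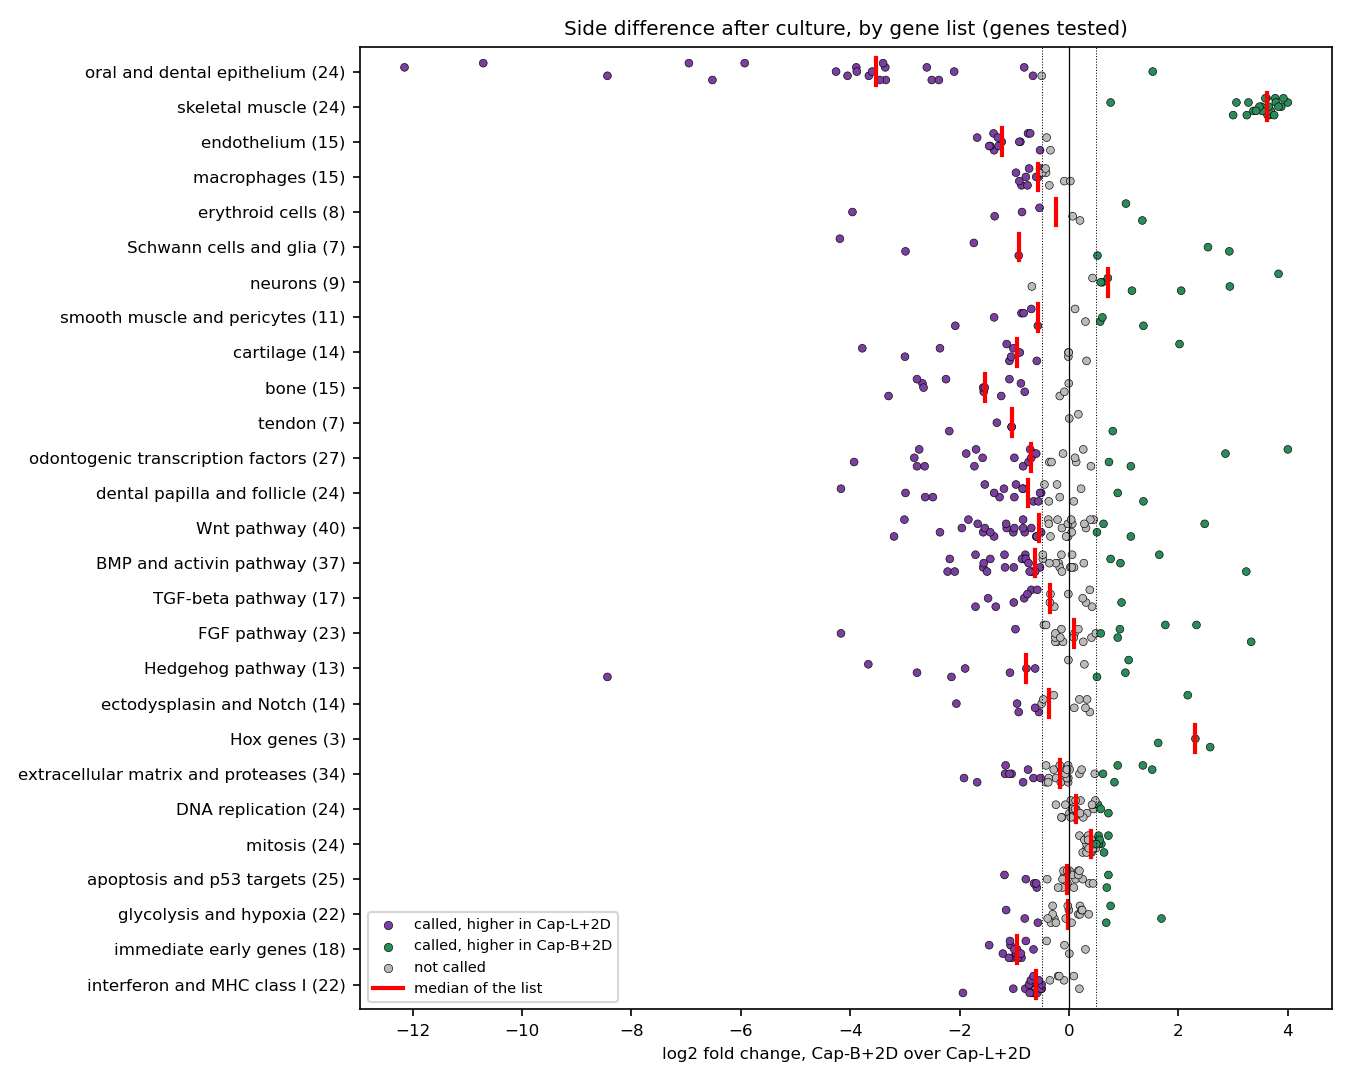
Log2 fold change (Cap-B+2D over Cap-L+2D) of each tested gene, by gene list, with a red line at the median of the list and dotted lines at the limit of 0.5. The epithelial median lay at -3.53 and the muscle median at 3.62. Between them the mesenchymal pathway lists had medians from -0.78 to 0.085, apart from the 3 Hox genes that passed the filter, at 2.31.

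Targets of Hedgehog signalling were higher in the lingual part. Of 13 genes tested, 8 were called lingual and 3 buccal, against 12.5% of all genes in each direction. Gli1 (ENSMUSG00000025407, chromosome 10, 127165751 to 127177843), the transcription factor that is itself a target of the pathway, was at 216, 201 and 214 CPM in Cap-L+2D and 28.3, 28.9 and 34.5 CPM in Cap-B+2D (log2 fold change -2.78, SE 0.055, adjusted p = 2.2e-23). Hhip, the secreted inhibitor induced by the pathway, was at 19.8, 20.7 and 20.2 CPM in Cap-L+2D and 4.55, 4.35 and 4.7 CPM in Cap-B+2D (log2 fold change -2.15, SE 0.076, adjusted p = 3.62e-18). Both were several times higher in the lingual part, where epithelial transcripts, Shh among them, were also higher (the part of epithelium in this was not tested). Smo, the signal transducer, was at 258, 251 and 264 CPM in Cap-L+2D and 242, 260 and 265 CPM in Cap-B+2D and was not called. Gas1, a co-receptor that binds Shh, had the opposite direction, at 164, 177 and 154 CPM in Cap-L+2D and 342, 337 and 331 CPM in Cap-B+2D (log2 fold change 1.03, SE 0.043, adjusted p = 1.07e-16).

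In the Wnt pathway, 21 of 40 genes were called lingual and 4 buccal, against 12.5% of all genes in each direction. Among the ligands and R-spondins, the secreted agonists that amplify Wnt signals, Wnt2 (ENSMUSG00000010797, chromosome 6, 17988939 to 18030584) was at 15.3, 16.5 and 16.5 CPM in Cap-L+2D and 1.67, 1.67 and 1.93 CPM in Cap-B+2D (log2 fold change -3.20, SE 0.099, adjusted p = 2.57e-19). Rspo4 was at 9.75, 9.52 and 8.85 CPM in Cap-L+2D and 2.08, 2.42 and 2.74 CPM in Cap-B+2D (log2 fold change -1.96, SE 0.11, adjusted p = 4.97e-14). Rspo2 was at 35.5, 36.7 and 33.5 CPM in Cap-L+2D and 24.5, 22.6 and 22.6 CPM in Cap-B+2D (log2 fold change -0.60, SE 0.055, adjusted p = 9.58e-10). Rspo1 had lingual values above the buccal ones without passing the fold limit, at 51.4, 50 and 50.2 CPM in Cap-L+2D and 36.8, 38.7 and 41.1 CPM in Cap-B+2D (log2 fold change -0.38, SE 0.048, adjusted p = 2.26e-07). Of the inhibitors, Sostdc1, which blocks both Wnt and BMP ligands around the tooth, was at 173, 166 and 166 CPM in Cap-L+2D and 33.3, 32.2 and 32.7 CPM in Cap-B+2D (log2 fold change -2.36, SE 0.042, adjusted p = 2.57e-24). The inhibitor Sfrp5 was higher in the buccal part, at 0.542, 0.564 and 0.391 CPM in Cap-L+2D and 2.44, 3.04 and 2.79 CPM in Cap-B+2D (log2 fold change 2.48, SE 0.21, adjusted p = 1.32e-10), while Sfrp2 was just past the fold limit toward the lingual part (log2 fold change -0.51, SE 0.037, adjusted p = 1.05e-11) and under it, at -0.48, without Cap-B+2D replicate 1. Dkk2 was not called (257, 246 and 249 CPM in Cap-L+2D and 198, 198 and 188 CPM in Cap-B+2D), nor was Sfrp1 (263, 266 and 255 CPM in Cap-L+2D and 258, 251 and 246 CPM in Cap-B+2D). Sp5, a direct target of Wnt signals, was higher in the lingual part (5.38, 7.1 and 4.82 CPM in Cap-L+2D and 0.772, 0.458 and 0.862 CPM in Cap-B+2D). The lingual calls held agonists, inhibitors and a target together.

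BMP and activin genes were called lingual in 20 of 37 cases and buccal in 4, against 12.5% of all genes in each direction. Bmp2 (ENSMUSG00000027358, chromosome 2, 133394079 to 133404805), a ligand, was at 104, 106 and 103 CPM in Cap-L+2D and 22.9, 23.3 and 21.1 CPM in Cap-B+2D (log2 fold change -2.22, SE 0.047, adjusted p = 8.13e-23). Bmp4, the ligand of early dental mesenchyme, was at 106, 105 and 107 CPM in Cap-L+2D and 130, 125 and 131 CPM in Cap-B+2D and was not called (log2 fold change 0.27, SE 0.038, adjusted p = 9.9e-07). Antagonists split by gene. Fst, which binds activins, was at 166, 167 and 161 CPM in Cap-L+2D and 39.6, 38 and 37.9 CPM in Cap-B+2D (log2 fold change -2.09, SE 0.041, adjusted p = 1.98e-23). Grem1, which binds BMPs, was at 31.8, 31 and 29.1 CPM in Cap-L+2D and 18.6, 18.3 and 16 CPM in Cap-B+2D (log2 fold change -0.79, SE 0.061, adjusted p = 3.58e-11). Both were higher in every lingual library than in any buccal one, and 59.3% of all genes tested had such a separation of the groups. Chrd, the antagonist chordin, was higher in the buccal part, at 34.9, 31 and 35.1 CPM in Cap-L+2D and 63.6, 61.4 and 69.4 CPM in Cap-B+2D (log2 fold change 0.94, SE 0.054, adjusted p = 8.2e-14). Nog, the antagonist noggin, overlapped between the groups at 13.8, 14.9 and 13.4 CPM in Cap-L+2D and 13.9, 13.3 and 15.4 CPM in Cap-B+2D (log2 fold change 0.022, SE 0.071, adjusted p = 0.819). Chrdl2, a relative of chordin, also overlapped, at 5.03, 4.45 and 4.79 CPM in Cap-L+2D and 4.04, 4.12 and 4.76 CPM in Cap-B+2D (log2 fold change -0.14, SE 0.11, adjusted p = 0.283). The receptor Bmpr1b was the member most in favour of the buccal part, at 2.79, 2.09 and 1.72 CPM in Cap-L+2D and 20.7, 20.1 and 19.9 CPM in Cap-B+2D (log2 fold change 3.24, SE 0.1, adjusted p = 5.2e-19).

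Genes of the TGF-beta pathway were called lingual in 8 of 17 cases, against 12.5% of all genes. Tgfb3 (ENSMUSG00000021253, chromosome 12, 86103519 to 86125815), a ligand, was at 333, 327 and 334 CPM in Cap-L+2D and 116, 118 and 124 CPM in Cap-B+2D (log2 fold change -1.48, SE 0.038, adjusted p = 5.15e-21), Tgfb1 had a log2 fold change of -1.34, and the matrix target Tgfbi was at 539, 514 and 554 CPM in Cap-L+2D and 158, 166 and 169 CPM in Cap-B+2D (log2 fold change -1.71, SE 0.04, adjusted p = 6.22e-22). FGF genes had no common direction, with 2 of 23 called lingual and 6 buccal, against 12.5% of all genes in each direction. Fgf3, a ligand of the dental papilla, was at 5.92, 5.67 and 5.83 CPM in Cap-L+2D and 0.515, 0.262 and 0.149 CPM in Cap-B+2D (log2 fold change -4.17, SE 0.2, adjusted p = 3.68e-15). Fgf9 was higher in the buccal part, at 2.17, 1.76 and 2.01 CPM in Cap-L+2D and 9.78, 10.5 and 9.51 CPM in Cap-B+2D (log2 fold change 2.33, SE 0.11, adjusted p = 1.52e-15), as was the receptor Fgfr4, which muscle progenitors are known to express, at 11.4, 8.99 and 9.74 CPM in Cap-L+2D and 97, 101 and 102 CPM in Cap-B+2D (log2 fold change 3.33, SE 0.06, adjusted p = 3.1e-24). Eda, the ectodysplasin ligand, was at 27.8, 27.2 and 28.7 CPM in Cap-L+2D and 14.6, 15.2 and 14.7 CPM in Cap-B+2D (log2 fold change -0.92, SE 0.057, adjusted p = 4.77e-13). Edaradd, the adaptor of its receptor, was at 9.37, 8.43 and 9.84 CPM in Cap-L+2D and 2.11, 2.16 and 2.38 CPM in Cap-B+2D (log2 fold change -2.06, SE 0.11, adjusted p = 1.76e-14). In the Notch pathway the ligand Jag1 was higher in the lingual part (log2 fold change -0.95, SE 0.037, adjusted p = 3.54e-17) and the ligand Dll1 in the buccal part (log2 fold change 2.17, SE 0.076, adjusted p = 3.22e-18).

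**Figure D3:**
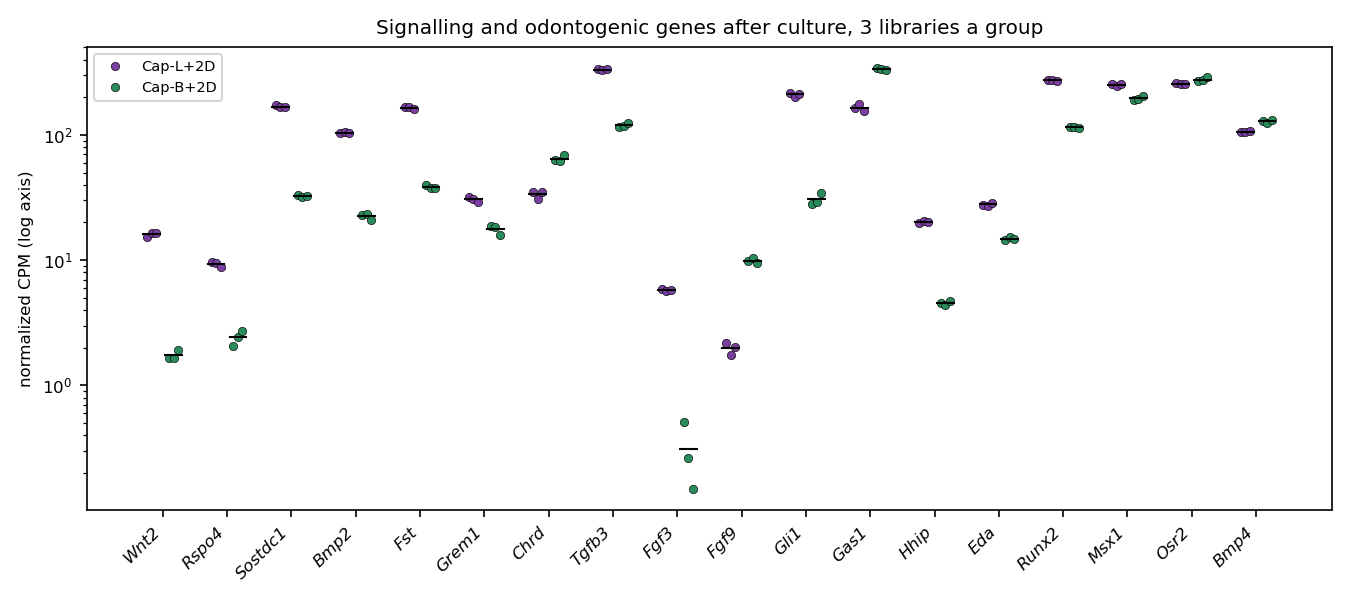
Normalized CPM (log axis) of 18 signalling and odontogenic genes in the 3 Cap-L+2D and the 3 Cap-B+2D libraries, with a line at each group mean. Gli1 lay at 210 against 30.6 CPM and Wnt2 at 16.1 against 1.76 CPM, while Osr2 and Bmp4 lay close together in both groups.

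Genes of the papilla and follicle were called lingual in 16 of 24 cases and buccal in 2, against 12.5% of all genes in each direction. Ostn, a secreted peptide of bone-forming cells, was at 12.5, 11.3 and 12.1 CPM in Cap-L+2D and 1.8, 2.03 and 1.99 CPM in Cap-B+2D (log2 fold change -2.63, SE 0.1, adjusted p = 3.83e-17). Postn, periostin of the follicle and periosteum, was at 1958, 2001 and 1964 CPM in Cap-L+2D and 1299, 1247 and 1236 CPM in Cap-B+2D (log2 fold change -0.65, SE 0.035, adjusted p = 2.17e-14). In the matrix list, 10 of 34 genes were called lingual and 5 buccal, against 12.5% of all genes in each direction. The buccal count was near that share, and the median log2 fold change was -0.16. Col8a1 was higher in the lingual part (309, 309 and 312 CPM in Cap-L+2D and 83.4, 80 and 83.1 CPM in Cap-B+2D), as was the collagenase Mmp13 (60.1, 60.8 and 56 CPM in Cap-L+2D and 18.9, 18 and 18.1 CPM in Cap-B+2D). Col14a1, a collagen of loose connective tissue, was higher in the buccal part (111, 108 and 111 CPM in Cap-L+2D and 322, 313 and 315 CPM in Cap-B+2D), as was the fibrillin Fbn2 (log2 fold change 1.35, SE 0.036, adjusted p = 9.37e-21). Among 20 Hox genes, which mark positions behind the first arch and are known to be silent in the jaw, 3 passed the filter and all 3 were called buccal. Hoxd8 was at 2.48, 3.38 and 2.45 CPM in Cap-L+2D and 7.8, 8.08 and 9.75 CPM in Cap-B+2D (log2 fold change 1.63, SE 0.12, adjusted p = 2.49e-11), and Hoxd4 and Hoxd9 had means under 2 CPM in both groups. Hoxd4 and Hoxd9 had at most 6 and 13 counts in a lingual library and could pass the filter through their buccal counts. The filter thus favoured a buccal direction for them, and the shared direction of the 3 is no separate result. Other annotated genes overlap 52.3% of the exonic bases of Hoxd4, and its count is uncertain.

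Mitosis genes were somewhat higher in the buccal part. Of 24 tested, 8 were called buccal and 0 lingual, and the log2 fold changes of all 24 lay between 0.19 and 0.72 (by edgeR's unadjusted p under 0.05, 0 were lower in the buccal part). Mki67, a marker of cycling cells, was at 117, 121 and 117 CPM in Cap-L+2D and 188, 186 and 180 CPM in Cap-B+2D (log2 fold change 0.64, SE 0.037, adjusted p = 1.21e-13). Top2a was at 147, 156 and 154 CPM in Cap-L+2D and 195, 193 and 184 CPM in Cap-B+2D (log2 fold change 0.32, SE 0.038, adjusted p = 8.42e-08). Among 24 replication genes, 3 were called buccal, the same share as the 12.5% of all genes, with a median log2 fold change of 0.12. Pcna, the polymerase clamp, was not called, at 20.7, 22.8 and 20.2 CPM in Cap-L+2D and 20.6, 18.8 and 18.5 CPM in Cap-B+2D (log2 fold change -0.13, SE 0.063, adjusted p = 0.0774). Other annotated genes overlap 20.8% of the exonic bases of Pcna, so its count is uncertain. Muscle progenitor genes were higher in the same libraries, and the part of muscle content in these values was not tested. Cdkn1a, the cell cycle inhibitor that p53 induces, was at 107, 107 and 105 CPM in Cap-L+2D and 171, 175 and 181 CPM in Cap-B+2D (log2 fold change 0.72, SE 0.038, adjusted p = 1.52e-14). Bcl2, which blocks cell death, was higher in the lingual part (57.2, 62.1 and 59.3 CPM in Cap-L+2D and 26.3, 27.5 and 25.4 CPM in Cap-B+2D).

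Genes induced by stress and growth factors were mostly higher in the lingual part. Of 18 immediate early genes, 14 were called lingual and 0 buccal, with a median log2 fold change of -0.94 (at an unadjusted p under 0.05, 1 was higher in the buccal part by edgeR). Fosb was at 2169, 2155 and 2148 CPM in Cap-L+2D and 918, 918 and 958 CPM in Cap-B+2D (log2 fold change -1.21, SE 0.035, adjusted p = 4.91e-20). Dusp1, a phosphatase that ends MAP kinase signals, was at 233, 235 and 233 CPM in Cap-L+2D and 79.3, 85.8 and 89.4 CPM in Cap-B+2D (log2 fold change -1.46, SE 0.042, adjusted p = 5.33e-20). Egr1 was the exception among abundant members, at 2341, 2292 and 2304 CPM in Cap-L+2D and 2253, 2300 and 2408 CPM in Cap-B+2D (log2 fold change 0.005, SE 0.035, adjusted p = 0.921). Interferon and class I genes were called lingual in 16 of 22 cases, against 12.5% of all genes. The GTPase gene Gbp2 was at 15.3, 14.9 and 14.7 CPM in Cap-L+2D and 3.89, 3.73 and 4.07 CPM in Cap-B+2D (log2 fold change -1.94, SE 0.083, adjusted p = 2.05e-16). B2m, the light chain of class I molecules and the study's reference gene for RT-qPCR, was at 221, 221 and 199 CPM in Cap-L+2D and 145, 141 and 140 CPM in Cap-B+2D (log2 fold change -0.58, SE 0.042, adjusted p = 6.95e-12). Glycolysis and hypoxia genes had no common direction, with 3 of 22 called each way, near the 12.5% of all genes called in each direction.

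Outside the marker lists of other cells, the leading genes of each side were taken by a rule on fold, level and absence of overlap. On the lingual side 3 of the 10 are known from epithelium, namely Col17a1 of the hemidesmosome (33.9, 30.3 and 36.1 CPM in Cap-L+2D and 1.7, 1.73 and 1.72 CPM in Cap-B+2D), Trim29 and the water channel Aqp3. Nr5a2 (ENSMUSG00000026398, chromosome 1, 136770309 to 136888186), an orphan nuclear receptor, was at 71.9, 74.3 and 73.6 CPM in Cap-L+2D and 2.91, 3.21 and 3.18 CPM in Cap-B+2D (log2 fold change -4.57, SE 0.065, adjusted p = 3.74e-26). The tetraspanin Tspan8 was at 61, 65.5 and 60.5 CPM in Cap-L+2D and 3.5, 2.55 and 2.79 CPM in Cap-B+2D (log2 fold change -4.38, SE 0.077, adjusted p = 2.36e-24). The relaxin family receptor Rxfp2 was at 12.5, 14.1 and 13 CPM in Cap-L+2D and 0.489, 0.654 and 0.714 CPM in Cap-B+2D (log2 fold change -4.43, SE 0.13, adjusted p = 1.45e-19). These 3 had lingual values more than an order of magnitude above the buccal ones. Cntnap4, of the neurexin family, was at 23.3, 24.8 and 26.1 CPM in Cap-L+2D and 1.16, 1.08 and 1.01 CPM in Cap-B+2D. P2ry14, a receptor for nucleotide sugars, was at 13.9, 13.9 and 14.2 CPM in Cap-L+2D and 0.643, 0.949 and 0.743 CPM in Cap-B+2D. Another of the 10 lay beside Hand2, which was also higher in the lingual part. Hand2os1, a long non-coding RNA, was at 11.9, 12.5 and 11.8 CPM in Cap-L+2D and 0.746, 0.687 and 0.862 CPM in Cap-B+2D. The counting ignored strand, and other annotated genes overlap 7.1% of the exonic bases of Hand2os1 and 19.6% of those of Hand2, where reads cannot be assigned to 1 gene.

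On the buccal side 7 of the 10 are known from muscle or its synapse. They were the myosin heavy chains Myh1, Myh6 and Myh7, together with Ano5, Ankrd1, Musk and the acetylcholine receptor subunit Chrnd. Myh1 was at 1.05, 1.09 and 1.82 CPM in Cap-L+2D and 31.6, 32.5 and 34.8 CPM in Cap-B+2D (log2 fold change 4.58, SE 0.11, adjusted p = 1.07e-21), and its family shares sequence, so the split of reads among its members is uncertain. The others were Tbx18, the zinc finger gene Zic1 (1.16, 1.03 and 0.677 CPM in Cap-L+2D and 16.2, 15.6 and 16.6 CPM in Cap-B+2D, log2 fold change 4.12, SE 0.12, adjusted p = 1.11e-19) and the muscarinic receptor Chrm3 (0.774, 0.564 and 0.729 CPM in Cap-L+2D and 10.6, 10 and 10.7 CPM in Cap-B+2D).

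Side differences before and after culture were compared in 1 fit of 12 libraries. In the uncultured parts, 1550 genes (7.01% of 22098) were higher in Cap-L and 2329 (10.5%) in Cap-B. The difference between the 2 side differences had an adjusted p under 0.05 toward the lingual part in 4316 genes (19.5%) and toward the buccal part in 3526 (16%). In a fit of all 24 libraries these counts were 2075 and 1973. Of the 2642 lingual calls after culture that could be tested before it, 916 were called lingual, 125 were called buccal and 1601 were not called in the uncultured parts. Of 2621 buccal calls, 1152 were called buccal before culture, 74 lingual and 1395 neither. Across the 21082 genes tested in both, the 2 side differences correlated at r = 0.59, a description over genes that are not independent and from libraries that the comparisons do not share.

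Some differences were already present at dissection. Hand2 was at 7.09 ± 0.44 CPM in Cap-L and 0.425 ± 0.0708 CPM in Cap-B (SD, n = 3) before culture, and the change of its side difference did not pass the test (interaction 0.11, adjusted p = 0.815). Nr5a2 was at 63.4 ± 0.579 CPM in Cap-L and 1.77 ± 0.0922 CPM in Cap-B (SD, n = 3), Tbx18 at 5.32 ± 0.406 CPM in Cap-L and 176 ± 3.02 CPM in Cap-B (SD, n = 3) and Fst at 62.7 ± 0.729 CPM in Cap-L and 11.6 ± 0.145 CPM in Cap-B (SD, n = 3), all with the direction they had after culture. The side difference of these 3 was smaller after culture, by an interaction of 0.60 for Nr5a2 (adjusted p = 0.000678), -1.05 for Tbx18 (adjusted p = 1.67e-10) and 0.34 for Fst (adjusted p = 0.00026), of which those of Nr5a2 and Fst were not called in the fit of all 24 libraries. Other side differences moved toward the lingual part. Gli1 was at 119 ± 2.32 CPM in Cap-L and 134 ± 5.96 CPM in Cap-B (SD, n = 3) before culture and its side difference moved toward the lingual part (interaction -2.95, SE 0.076, adjusted p = 4.79e-23). Hhip was higher in Cap-B before culture, at 4.67 ± 0.582 CPM in Cap-L and 14.2 ± 0.271 CPM in Cap-B (SD, n = 3), and higher in Cap-L+2D after it (interaction -3.77, adjusted p = 4.32e-21). Rspo2 turned in the same way, from 12.4 ± 0.781 CPM in Cap-L and 28.5 ± 0.477 CPM in Cap-B (SD, n = 3) before culture (interaction -1.79, adjusted p = 9.78e-17). Osr2 was at 222 ± 11 CPM in Cap-L and 433 ± 7.41 CPM in Cap-B (SD, n = 3) before culture (log2 fold change 0.96, adjusted p = 3.04e-18) and was not called after it (interaction -0.86, adjusted p = 6.77e-13). For Bmp4, Chrd and Pcna the interaction did not pass the test (estimates -0.026, 0.11 and 0.040, SE 0.059, 0.088 and 0.089). In the mitosis list all 24 interactions pointed to the buccal part with an adjusted p under 0.05, and 0 to the lingual part in edgeR's test. Of all genes, 16% had such an interaction toward the buccal part. By contrast, the endothelial list had 13 of 15 interactions toward the lingual part, against 19.5% of all genes.

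**Figure D4:**
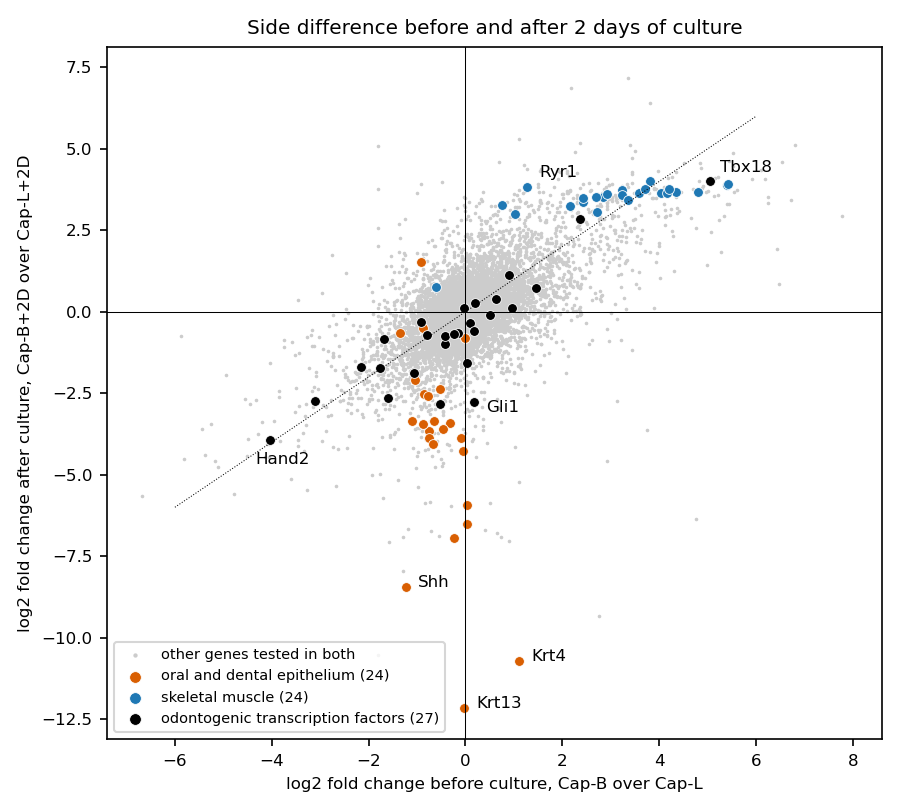
Log2 fold change of the buccal over the lingual part after culture against the same before culture, for genes tested in both, with epithelial, muscle and odontogenic genes coloured and a dotted line where both are equal. Muscle genes formed a flat band near 3.62 after culture over a wide range before it, and Krt13 lay near 0 before culture and at -12.15 after it.

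The steps below did not set the epithelial and muscle content apart from other differences, beyond the marker genes themselves. The markers of other cells accounted for 83 of the lingual and 42 of the buccal calls, and after removal of those genes 2574 of the other 2574 lingual and 2609 of the other 2616 buccal calls were called again. Each gene is tested on its own, so the removal could change other calls only through scaling, shared variance estimates and the adjustment. It therefore says nothing about cell content in the other calls. The removal also leaves genes that epithelium or muscle express without being on a list. A fit of all 24 libraries with the mean level of each marker list as a covariate kept 37 of 2621 lingual and 25 of 2606 buccal calls, and called 15 lingual and 24 buccal ones in the opposite direction. The median standard error of the called genes was 3.45 in that fit against 0.125 without the covariates. The groups differed by -3.654 in the epithelial and 3.341 in the muscle level, while the SD within groups was 0.427 and 0.128, so side and content cannot be told apart by this fit.

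A gene was also taken to follow the epithelial level where its deviations from the group means over the 18 other libraries correlated with those of the markers at r of 0.7 or more. This held for 23 of the 24 epithelial markers, from which the level itself was computed. It held for 1985 (9.37%) of all genes tested, among them 440 (16.6%) of the lingual and 336 (12.6%) of the buccal calls. Without Bell-W replicate 3, which held most of the epithelial spread, it held for 316 (1.49%) of all genes tested and for 16 of the markers. Among those genes were 94 (3.54%) of the lingual and 52 (1.96%) of the buccal calls. Over the 18 libraries, with Bell-W replicate 3 among them, the lingual signalling genes Shh, Edaradd, Tgfb1 and Sostdc1 followed the epithelial level (r = 0.92, 0.86, 0.78 and 0.74). Shh is itself one of the markers that make up that level. Sox2, which is not, also followed it (r = 0.92). Buccal genes such as Myh3 and Fgf9 passed the same limit (r = 0.96 and 0.97). Wnt2, Bmp2, Gli1 and Hand2 did not pass it (r = -0.14, -0.051, 0.032 and -0.036). For muscle only 10 of the 24 markers followed their own list, so the measure gave no account of muscle content.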

How the data were processed

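RNA-seq of tooth germ mesenchyme was deposited as 1 table of raw read counts per gene. Per the file header, the authors counted read pairs over exons by gene with featureCounts 2.0.0 on Ensembl release 107 of GRCm39, with strand ignored and reads of several locations left out. The submitters' processing notes name Bowtie 1.2.3, Trimmomatic 0.39, FastQC 0.12.1, Subread 2.0.3 and DESeq2 1.40.2, while the methods name another aligner and library kit, so the kit and aligner are uncertain. Counting without strand leaves overlapping genes unresolved.

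The deposited counts of the 6 cultured libraries were filtered (filterByExpr), scaled by TMM and tested with the quasi-likelihood test of edgeR 4.0.16 in R 4.3.3, with Benjamini-Hochberg adjustment over all genes. The interaction used 12 libraries. The gene lists and the comparison were chosen with earlier results of these data known. Named genes were those that the study names, the 10 per direction with the largest change at an average log2 CPM of 2 or more with no overlap and in no list of other cells, per list the 4 largest calls and the 2 most abundant members, and the 5 largest interactions per direction. On simulated data for the side comparison (20874 genes), 86 of 100 changes of 1 log2 unit and 97 of 100 of 2 units were recovered with 0 false calls. For the interaction (21504 genes) 87 and 93 of 100 were recovered with 16 false calls. Some genes that this rule selects are not reported here. Intervals and floors cover counting error only. Alternatives were DESeq2 1.42.0, other scalings and filters, a replicate block, leaving out each library, all 24 libraries and marker levels as covariates. Promoter sequences are from RefSeq on GRCm38.p6.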

Additional observations from a re-analysis of the deposited data

Results flagged for a closer look

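For genes named from the study's text or among the largest changes, and for Gli1, Hhip, Nr5a2 and Tbx18, the side difference after culture was tested against the side difference before culture by edgeR's interaction term over 12 libraries. The values below are the log2 side difference after culture minus that before it, and each had an adjusted p under 0.05 in this fit. In a fit of all 24 libraries the interactions of Eda, Fst, Nog, Nr5a2, Runx2 and Shh were not called.

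Among genes with an average log2 CPM of 2 or more, the 5 largest changes toward the lingual part were in epithelial genes. They were -12.11 ± 0.61 SE for Krt13, -11.80 ± 0.55 SE for Krt4, -7.10 ± 0.26 SE for the desmosomal gene Dsg1a, -6.72 ± 0.29 SE for Dsg3 and -6.56 ± 0.21 SE for Krt6a. Shh had -7.13 ± 1.3 SE and Sox2 -2.55 ± 0.29 SE. Shh had no read in the cultured buccal libraries, so that its estimate depends on the prior count of the fit and is no bound. Markers of epithelium as a whole moved with these values.

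Large changes toward the buccal part, at the same level of expression, were found in genes of several kinds. Stum, a membrane protein gene, had 3.12 ± 0.44 SE. Casz1, a zinc finger transcription factor, had 3.05 ± 0.15 SE, with a log2 fold change of -1.26 before culture and 1.79 after it. Kremen2, a receptor for Dkk inhibitors of Wnt signals, had 2.97 ± 0.14 SE. Insrr, a receptor of the insulin receptor family, had 2.95 ± 0.18 SE. Kremen2 was at 3.99, 2.75 and 3.52 CPM in Cap-L+2D and 18.6, 20.2 and 22.6 CPM in Cap-B+2D.

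Among signalling genes, the change was toward the lingual part for the Hedgehog targets Gli1 (-2.95 ± 0.076 SE) and Hhip (-3.77 ± 0.12 SE), for the Wnt genes Wnt2 (-2.23 ± 0.13 SE), Rspo2 (-1.79 ± 0.086 SE), Rspo4 (-1.45 ± 0.25 SE), Sfrp2 (-0.90 ± 0.062 SE) and Dkk2 (-0.82 ± 0.057 SE), and for the ligands Bmp2 (-1.28 ± 0.077 SE) and Tgfb3 (-0.35 ± 0.058 SE) and the antagonist Nog (-0.43 ± 0.15 SE). Of these, Hhip, Rspo2, Dkk2, Sfrp2 and Gli1 had a positive log2 fold change before culture, at 1.61, 1.19, 0.45, 0.38 and 0.17, and a negative one after it.

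Other side differences of lingual genes were smaller after culture than before it. The change was 0.90 ± 0.12 SE for Grem1, whose log2 fold change was -1.69 before and -0.80 after culture. It was 0.97 ± 0.18 SE for Chrdl2, 0.60 ± 0.13 SE for Nr5a2, 0.34 ± 0.069 SE for Fst and 0.27 ± 0.097 SE for Eda. The buccal gene Tbx18 also had a smaller side difference after culture (-1.05 ± 0.093 SE). The call of Eda was lost in 5 of the fits that left out 1 library and that of Nog in 2. The transcription factors Osr2 (-0.86 ± 0.059 SE), Msx1 (-0.47 ± 0.07 SE) and Runx2 (-0.39 ± 0.056 SE) moved toward the lingual part. B2m moved by -0.46 ± 0.065 SE.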

How the results depend on the processing

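The 2657 lingual and 2658 buccal calls were within 1.5 times of these counts under other scalings, filters, DESeq2, all 24 libraries in 1 fit, the scaling without marker genes and their removal. Over these settings they ran from 2245 to 2983 and from 2099 to 3133. The removal of marker genes could by itself hardly change the calls of other genes. Leaving out 1 library gave 2636 to 2710 lingual and 2595 to 2756 buccal calls, and 2210 and 2119 of the original calls were kept in every such fit. With no limit on the fold, 5840 and 5729 genes were called, and with a limit of 1, 1238 and 1346. The interaction counts of 4316 and 3526 fell to 2075 and 1973 in the fit of all 24 libraries. The main fit did not pair samples by replicate number, and whether the samples were paired is not settled by these values. Same-numbered libraries of the 2 sides correlated at 0.0104, -0.0136 and 0.0529 in their deviations from the group means over 21195 genes. Over the 9800 genes at an average log2 CPM of 4 or more they correlated at -0.108, -0.028 and 0.407. Replicate 3 correlated best with its own number in both sets, replicate 1 in the first, and replicate 2 in neither. With the replicate block, 2652 lingual and 2621 buccal calls and interactions of 4282 and 3420 genes were found, and no call of a named gene changed. Of the named genes, outside the covariate fit, 1848 of the values of the side difference kept direction and call. Values near 0 changed sign, namely Egr1 (-0.020 to 0.028 over the fits leaving out 1 library), Nog (-0.036 to 0.065), Smo (-0.036 to 0.029) and the interactions of Hand2 (-0.015 to 0.23) and Pcna (-0.008 to 0.093). The interaction of Bmp4 was 0.008 in the fit of all 24 libraries. Sfrp2 was under the fold limit (-0.48) without Cap-B+2D replicate 1. The interaction of Eda lost its call in 5 fits that left out 1 library, at 0.19 without Cap-B replicate 2, 0.20 without Cap-L replicate 3, 0.26 without Cap-L+2D replicate 1 and 0.25 without Cap-L+2D replicate 2 or Cap-B+2D replicate 2. That of Nog lost it at -0.39 without Cap-L replicate 2 or Cap-B replicate 2. In the fit of all 24 libraries the interactions of Eda (0.31), Fst (0.37), Nog (-0.39), Nr5a2 (0.63), Runx2 (-0.36) and Shh (-7.05) were not called.

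With the epithelial and muscle levels as covariates, 167 lingual and 73 buccal calls and interactions of 874 and 479 genes were found, and 37 and 25 of the original side calls were among them. There the standard errors were 3.45 at the median of the called genes, so that the values give no size of a difference. Estimates that changed sign in this fit were Acta2 -3.02, Ankrd1 -5.20, Aqp3 11.68, B2m 1.12, Bmp2 2.31, Col11a2 0.90, Col1a1 1.60, Dusp1 3.39, Edaradd 1.27, Fbn2 -0.24, Fgf3 2.86, Fosb 14.02, Fst 3.72, Gli1 0.35, Hand2 41.99, Hand2os1 32.24, Hbb-bs 2.27, Hbb-y -0.059, Hk2 1.45, Hoxd8 -0.45, Ibsp 9.59, Insrr -0.98, Isl1 -4.07, Lyz2 2.53, Mki67 -2.65, Msx1 1.45, Msx2 11.71, Musk -6.01, Myh1 -5.48, Myh6 -3.33, Ndrg1 1.71, Ngfr 3.47, Pax9 -0.25, Rspo1 0.93, Rspo2 3.55, Smo 1.75, Sostdc1 3.05, Sp5 4.51, Sparc 2.20, Tbx15 -5.12, Tbx18 -3.78, Tgfb1 6.18, Tgfbi 1.34, Thbs4 10.70, Tnmd 0.45, Top2a -0.81, Vegfa 1.67, Scx -4.85, and for the interaction B2m 0.35, Bmp2 0.32, Bmp4 1.71, Chrdl2 -1.89, Grem1 -1.51, Msx1 0.12, Nog 3.19, Nr5a2 -2.14, Pcna -1.46. The limit on the correlation set the number of calls that followed the epithelial level. At 0.5 it was 700 lingual (26.3%) and 574 buccal calls (21.6%), against 19.1% of all genes tested. At 0.8 it was 284 (10.7%) and 210 (7.9%), against 5.29% of all genes. The muscle level was followed by 265 lingual (9.97%) and 195 buccal calls (7.34%), against 4.72% of all genes. Without Bell-W replicate 3, a setting chosen after seeing the data, these were 60 (2.26%) and 71 (2.67%), against 1.33% of all genes. The cause of the changes was not tested. Depth limits genes near the floor of 3 counts, such as Krt13, Krt4, Myf6 and Shh.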

Other observations

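Genes of glycolysis and the response to low oxygen did not share a direction. Egln3, a prolyl hydroxylase induced when oxygen is low, was at 8.86, 9.85 and 8.72 CPM in Cap-L+2D and 29.6, 29 and 30.1 CPM in Cap-B+2D (log2 fold change 1.69, SE 0.064, adjusted p = 1.66e-17), and Car9, a carbonic anhydrase induced in the same way, had a log2 fold change of 0.76. Ndrg1, also induced by low oxygen, had the opposite direction, at 47.3, 50.1 and 51.2 CPM in Cap-L+2D and 22.1, 22.7 and 22.4 CPM in Cap-B+2D (log2 fold change -1.15, SE 0.05, adjusted p = 3.03e-16), as did Hk2, which encodes a hexokinase (log2 fold change -0.81, adjusted p = 1.14e-14). The growth factor gene Vegfa was at 199, 201 and 194 CPM in Cap-L+2D and 191, 194 and 199 CPM in Cap-B+2D and was not called. Targets of low oxygen were therefore found on both sides and among the genes that were not called.

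Genes tied to nerve differed gene by gene. Prph, an intermediate filament of peripheral neurons, was at 1.28, 1.43 and 1.38 CPM in Cap-L+2D and 9.88, 10.2 and 11.5 CPM in Cap-B+2D (log2 fold change 2.94, SE 0.12, adjusted p = 6.6e-17), and at 0.356 ± 0.0426 CPM in Cap-L and 0.376 ± 0.145 CPM in Cap-B (SD, n = 3) before culture. Ngfr, a receptor for neurotrophins that neural crest mesenchyme and glia express, was at 128, 121 and 125 CPM in Cap-L+2D and 62.8, 65.7 and 69.4 CPM in Cap-B+2D (log2 fold change -0.92, SE 0.043, adjusted p = 1.38e-15) and already stood higher in the lingual part before culture, at 110 ± 2.74 CPM in Cap-L and 28.3 ± 2.32 CPM in Cap-B (SD, n = 3). The calcium-binding protein gene S100b, which glia and cartilage express, was at 7.74, 7.27 and 6.98 CPM in Cap-L+2D and 0.901, 1.01 and 0.832 CPM in Cap-B+2D (log2 fold change -2.99, SE 0.13, adjusted p = 6.17e-16). Ngfr and S100b had the side opposite to that of Prph.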
